A study of Mus musculus with 8 samples.

Results

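Acod1, Aco1, Idh1, Idh2, Idh3a, Sdha, Sdhb, Slc25a1 and Acly encode 8 enzymes or enzyme subunits and 1 carrier of the itaconate, citrate and tricarboxylic acid (TCA) cycle pathways. They were chosen by name, found by the Ensembl identifiers that GENCODE gives for these symbols, and were 9 of 55359 genes listed. Their mRNA was measured by total RNA sequencing in bone marrow-derived macrophages (BMDMs) of 4 groups, with n = 2 samples each. The bone marrow came from wild-type C57BL/6 mice and was differentiated for 7 days (per the labels) with M-CSF and GM-CSF, each at 20 ng/mL. Ctrl BMDMs were naïve and unstimulated, and LPS BMDMs were naïve and were exposed to the inflammatory stimulus, 100 ng/mL LPS with 100 U/mL IFNγ, over 6 h. Eff BMDMs were efferocytic, meaning that they had first been co-cultured for 16 h with apoptotic cells, at 5 apoptotic cells per macrophage (Mϕ). LPSEff BMDMs were efferocytic and then received the same LPS/IFNγ stimulus for 6 h. The apoptotic cells were mouse NIH-3T3 CA fibroblasts, a single clone whose engineered human caspase-8 is activated by a dimerizer (10 nM), and it is not stated whether naïve cells also received the dimerizer. The apoptotic cells were taken off and the BMDMs washed before the stimulus was given. For the RNA, CD45+ cells were later selected with magnetic beads. No label says that the 2 samples of a group came from separate cultures or animals, so that the p-values measure the spread between these samples, which may be technical.

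In the mitochondrial TCA cycle, citrate is isomerised through cis-aconitate to isocitrate, which isocitrate dehydrogenases oxidise, and succinate dehydrogenase later oxidises succinate and passes the electrons to the respiratory chain. Activated Mϕ divert cis-aconitate to itaconate, an antimicrobial and immunomodulatory metabolite that also inhibits succinate dehydrogenase. Citrate can also leave the mitochondrion and be cleaved to acetyl-CoA, the building block of fatty acids and sterols and the donor for protein acetylation.

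The values are normalized counts, that is, read counts divided by 1 size factor per sample. Reads recovered from them came to between 3481288 and 12020918 per sample, the fewest in a Ctrl sample. All 9 genes had at least 123 reads in every sample and all passed the filter on low values (a mean of at least 10 normalized counts), so that they were tested among 16309 genes. Each of 10 Mϕ markers was above 10 normalized counts in all 8 samples, and their sum was between 89601 and 143471. The 12 fibroblast markers summed to 183 to 387 (Ctrl), 929 to 993 (LPS), 2086 to 4009 (Eff) and 5348 to 5986 (LPSEff). Col6a3 and Postn were at 0 in the shallower Ctrl sample. Most of the sum in LPS was Col5a1, Pdgfrb and Fbn1 (means of 357, 245 and 144). In LPSEff, Col1a2 and Col6a3 were the highest of the list (means of 1641 and 1338). Of the 7 lymphocyte, 6 neutrophil and 6 dendritic cell markers, 0, 2 and 4 were above 10 normalized counts in every sample. The dendritic list summed to 2037 to 2587 (Ctrl), 8284 to 16013 (LPS), 1314 to 1621 (Eff) and 6483 to 6688 (LPSEff), most of it Ccr7, while Cd209a was at 0 in both LPSEff samples. The neutrophil list summed to between 126 and 759, and the lymphocyte list to between 13.3 and 71.1. As this is bulk RNA, fewer cells of a type and less RNA per cell cannot be told apart.

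Of the 9 genes, Acod1 was the one that rose with LPS/IFNγ, 43.8-fold in naïve and 67.6-fold in efferocytic Mϕ, while Idh1, Idh2 and Idh3a fell in both. Aco1 was called lower in efferocytic Mϕ. In naïve Mϕ its change went the same way without a call (log2 −0.56, adjusted p = 0.0923 in limma). With the deposited scaling and the design used here, Sdha, Sdhb, Slc25a1 and Acly did not pass limma's test in any comparison, and none of the 9 passed it between efferocytic and naïve Mϕ at either stimulation state. The plot of normalized counts by sample shows the 9 genes side by side.

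**Figure D1:**
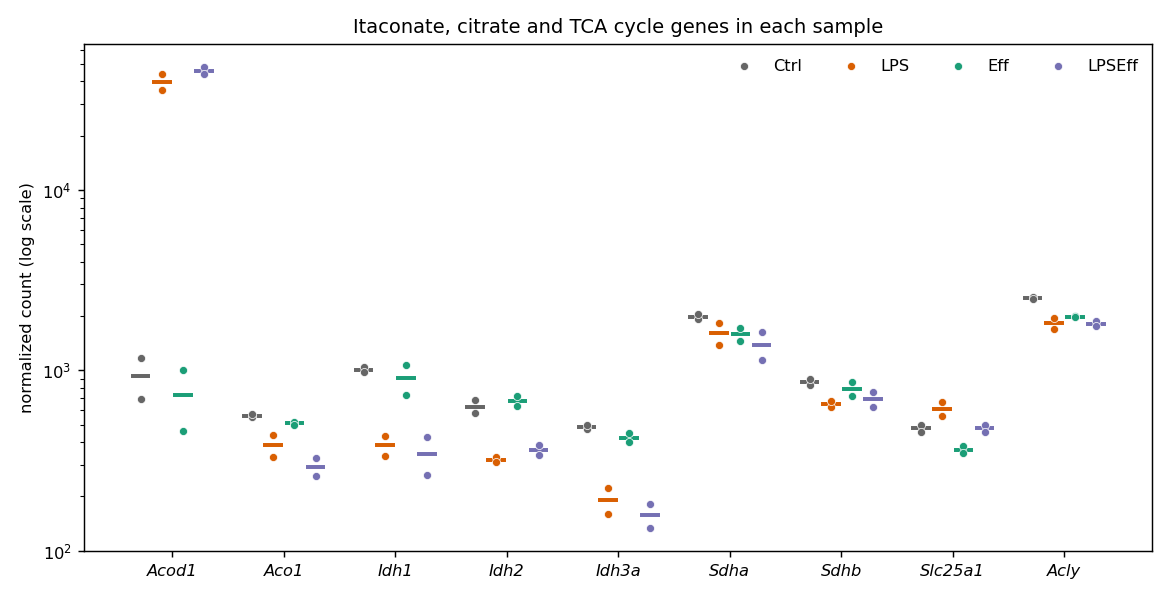
Normalized counts (vertical axis, log scale) of the 9 genes in each of the 8 samples. Points are single samples, bars are means of the 2 samples of a group. Acod1 lies between 459 and 1167 in the unstimulated samples and between 35698 and 48106 in the stimulated ones, and no other gene exceeds 2567.

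Acod1 encodes aconitate decarboxylase 1, the mitochondrial enzyme that makes itaconate. The gene lies at chr14:103284413-103294009 on the plus strand (GRCm39). Its normalized counts were 1167 and 696 (Ctrl), 43803 and 35698 (LPS), 1001 and 459 (Eff), and 48106 and 43751 (LPSEff). All 4 stimulated samples were far above all 4 unstimulated ones, while the Ctrl and Eff samples overlapped, as did the LPS and LPSEff samples. In log2 terms the rise was 5.45 ± 0.38 (SE) in naïve Mϕ, with a 95% interval of 4.58 to 6.33 and an adjusted p = 7.91e-05 in limma. In efferocytic Mϕ it was 6.08 ± 0.38, with an interval of 5.20 to 6.96 and an adjusted p = 4.00e-05 in limma. Those changes ranked at the 99.6th and the 99.7th percentile of the log2 changes of all tested genes.

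The rise was 0.62 larger in efferocytic than in naïve Mϕ on the log2 scale, but the 95% interval of this difference reached from −0.62 to 1.87 (unadjusted p = 0.281 in limma). It was between 0.06 and 1.18 when 1 sample was left out at a time. Of all 16309 tested genes, 0 passed the test of the difference between both LPS/IFNγ effects at an adjusted p under 0.05 in limma (0.0%), and also 0 in edgeR and in DESeq2 with the same design. At an unadjusted p under 0.05 there were 311 genes in limma, and 0 of the 9 were among them.

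Reads on Acod1 made up 0.0176% and 0.010% of all reads in the Ctrl samples (95% Wilson intervals 0.0163 to 0.0191% and 0.00946 to 0.0106%). In the LPS samples they made up 0.517% and 0.376% (0.512 to 0.523% and 0.372 to 0.380%). In the Eff samples the shares were 0.0152% and 0.00668%, and in the LPSEff samples 0.539% and 0.461%. Ordered by normalized count, Acod1 was gene number 13 and 20 in the LPS samples and number 12 and 18 in the LPSEff samples, against numbers 958 and 2195 in the Ctrl samples. The intervals cover counting error only and are much narrower than the spread between both samples of a group.

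The 250 bases before the annotated start of Acod1 are shown because this gene's mRNA moved most of the 9, and those of Aco1 because, of the 4 genes called lower in a comparison, its window is the one without annotated exon bases of any gene. Both are from GRCm39, on the plus strand, at chr14:103284163-103284412 and chr4:40142748-40142997, and capitals mark the motif matches named below.
Acod1: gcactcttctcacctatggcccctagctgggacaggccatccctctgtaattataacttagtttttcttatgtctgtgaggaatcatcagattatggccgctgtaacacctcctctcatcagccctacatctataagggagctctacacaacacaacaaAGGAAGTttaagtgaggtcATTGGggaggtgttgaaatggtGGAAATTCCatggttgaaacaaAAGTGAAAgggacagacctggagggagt
Aco1: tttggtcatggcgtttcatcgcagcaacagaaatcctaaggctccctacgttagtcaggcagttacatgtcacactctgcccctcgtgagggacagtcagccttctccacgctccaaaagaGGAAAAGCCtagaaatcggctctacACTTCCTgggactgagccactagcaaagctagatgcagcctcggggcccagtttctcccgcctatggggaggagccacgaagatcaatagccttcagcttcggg
In the Acod1 window, the κB-like letters GGNNNTTCC matched at positions −50 to −42 from the start, on both strands. The letters AAGTGAAA, as in interferon-responsive elements, matched at −28 to −21, the ETS-like letters AGGAAGT at −91 to −85, and CCAAT at −72 to −68 on the reverse strand. In the Aco1 window, GGNNNTTCC matched at −129 to −121 and AGGAAGT at −104 to −98, both on the reverse strand. Of 21770 windows of the same length before protein-coding genes, searched on both strands, 15.8% held GGNNNTTCC, 1.45% AAGTGAAA, 7.12% AGGAAGT and 36.5% CCAAT. Neither window held TATAAA (11.9% of windows), TTCNNNGAA (7.70%), the core of the interferon-stimulated response element (3.32%), TGANTCA (6.17%) or GGGCGG (36.3%). The RefSeq start of Acod1 (GRCm38.p6) lies 35 bases downstream of the one used here, and TATAAA matched at −28 to −23 from it, as it did somewhere in 12.4% of 32851 RefSeq promoters, among which 8 of the 9 genes were found (not Idh3a). The motifs were chosen after the Acod1 sequence had been read, so the shares of windows do not show how unusual its matches are. Among the windows not printed here, GGNNNTTCC also matched in those of Idh1 (3 matches) and Sdhb (1 match). A match is a description of letters and no evidence of a bound factor. GC made up 45.6% of the Acod1 window and 54.4% of that of Aco1, against a median of 53.2% over all windows.

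The 5 tested genes whose log2 values were most like those of Acod1 over the 8 samples were Rigi (Pearson r = 0.9993), Clec4e (0.9988), A930037H05Rik (0.9987), Oasl2 (0.9983) and Rnf213 (0.9983). Rigi encodes a cytosolic RNA sensor, Clec4e the C-type lectin receptor Mincle, and Oasl2 an oligoadenylate synthetase-like protein. Such a likeness is common here, since the samples fall into stimulated and unstimulated ones, and 692 of 16300 genes had an r over 0.95 and 77 over 0.99.

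The changes of the remaining 8 genes with LPS/IFNγ were smaller and mostly in the other direction, and not all of them were called. In naïve Mϕ, 4 of the 9 were called (24.0% of all tested genes were), 1 higher (12.4% of all) and 3 lower (11.6%). The median log2 change was −0.48, and −0.52 without Acod1, against −0.01 over all tested genes. In efferocytic Mϕ, 5 of the 9 were called (19.7% of all tested genes were), 1 higher (10.7%) and 4 lower (8.95%). There the median was −0.22, and −0.51 without Acod1, against 0.01 over all tested genes. Both samples of LPS stood apart from both of Ctrl in all 9 genes (59.3% of all tested genes), and those of LPSEff from those of Eff in 7 (59.9%). Beside this, 2 of 10 tested Mϕ markers, 3 of 10 fibroblast, 1 of 1 lymphocyte, 2 of 4 neutrophil and 2 of 4 dendritic cell markers were called higher in LPS than in Ctrl, and 3, 1, 1, 1 and 1 in LPSEff than in Eff. No NIH-3T3 cells had been added to the Ctrl and LPS cultures. The part of these markers in the values of the 9 genes was not tested. With 2 against 2 samples an exact permutation test cannot go below p = 0.333, so that all calls rest on the spread that limma shares across genes.

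**Figure D2:**
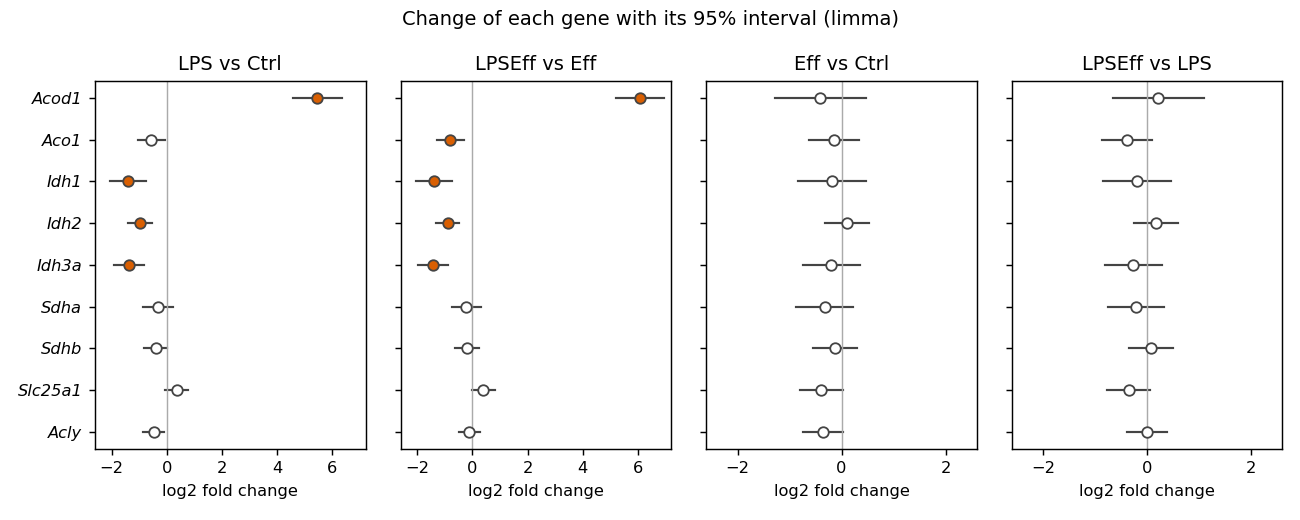
Log2 fold change (horizontal axis) of the 9 genes in the 4 comparisons, from limma on log2(normalized count + 1). Points are estimates, lines are 95% intervals, and filled points have an adjusted p under 0.05. The horizontal axes of the 2 panels on the left, for LPS/IFNγ, span a wider range than those on the right. Acod1 lies at 5.45 and 6.08 on the left, Idh1, Idh2 and Idh3a lie between −1.44 and −0.89 there, and all points on the right lie between −0.41 and 0.21 and are open.

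Aco1, Idh1, Idh2 and Idh3a stand directly downstream of citrate. Aco1 encodes the cytosolic aconitase, which turns into iron regulatory protein 1 when it loses its iron-sulfur cluster, and lies at chr4:40142998-40199010 on the plus strand. Its normalized counts were 552 and 569.6 (Ctrl), 331 and 438 (LPS), 518 and 498 (Eff), and 258 and 327 (LPSEff). Each stimulated sample was below each unstimulated one. In naïve Mϕ the change of −0.56 ± 0.21 (log2, SE) had an unadjusted p = 0.0278 and an adjusted p = 0.0923 in limma and was not called. In efferocytic Mϕ Aco1 fell 1.74-fold, by 0.80 ± 0.21 on the log2 scale (adjusted p = 0.0298 in limma). This call was lost in 5 of 8 fits without 1 sample (Ctrl replicate 1 or 2, Eff replicate 1 or 2, LPSEff replicate 1; adjusted p = 0.0533 to 0.179) and without the filter on low values (adjusted p = 0.0689). The difference between both Aco1 changes was −0.25, with a 95% interval of −0.92 to 0.43.

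Idh1 encodes the cytosolic and peroxisomal isocitrate dehydrogenase that yields NADPH, at chr1:65196781-65225721 on the minus strand. Normalized counts of Idh1 were 1038 and 981 (Ctrl), 336 and 434 (LPS), 729 and 1073 (Eff), and 264 and 425 (LPSEff). The Eff samples lay wide apart, but both were above every stimulated sample. Idh1 fell 2.64-fold in naïve Mϕ, by 1.40 ± 0.29 on the log2 scale (95% interval −2.05 to −0.75, adjusted p = 0.00944 in limma). In efferocytic Mϕ it fell 2.63-fold, by 1.40 ± 0.29 (−2.05 to −0.74, adjusted p = 0.0110). Left out singly, Ctrl replicate 1 ended the call in naïve Mϕ (adjusted p = 0.0596), and Eff replicate 2 (0.0765) or LPSEff replicate 1 (0.0728) that in efferocytic Mϕ. Both Idh1 changes differed by 0.0028 on the log2 scale, with a 95% interval of −0.92 to 0.93, which leaves room for a sizeable difference in either direction.

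Idh2 encodes the mitochondrial NADP-dependent isocitrate dehydrogenase, at chr7:79741431-79765535 on the minus strand. Its normalized counts were 577 and 681 (Ctrl), 329.8 and 311 (LPS), 632 and 717 (Eff), and 385 and 340.1 (LPSEff). Again, each stimulated sample was below each unstimulated one. Idh2 fell 1.96-fold in naïve Mϕ, by 0.97 ± 0.18 on the log2 scale (adjusted p = 0.00706 in limma), and 1.86-fold in efferocytic Mϕ, by 0.89 ± 0.18 (adjusted p = 0.0114). Without Ctrl replicate 2 the call in naïve Mϕ was lost (adjusted p = 0.0551), and without Eff replicate 2 (0.0845) or LPSEff replicate 2 (0.0690) that in efferocytic Mϕ.

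Idh3a encodes the catalytic subunit of the NAD-dependent isocitrate dehydrogenase of the TCA cycle, at chr9:54493575-54514730 on the plus strand. It had normalized counts of 470.3 and 499 (Ctrl), 159 and 221 (LPS), 400.5 and 447 (Eff), and 134 and 181 (LPSEff). No stimulated sample reached an unstimulated one. Idh3a fell 2.57-fold in naïve Mϕ, by 1.36 ± 0.24 on the log2 scale (adjusted p = 0.00490 in limma), and 2.71-fold in efferocytic Mϕ, by 1.44 ± 0.24 (adjusted p = 0.00450). Both calls held in all 8 fits without 1 sample. Acod1 and Idh3a were the genes of the 9 whose calls did not depend on any single sample. Over the 8 samples the log2 values of Aco1, Idh1, Idh2 and Idh3a correlated with one another at r = 0.753 to 0.985 (6 pairs), which is a description of samples that share the stimulus.

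Without 1 sample at a time, the log2 changes of the called genes kept their signs. In naïve Mϕ, Idh1 lay between −1.58 and −1.22, Idh2 between −1.09 and −0.85, and Idh3a between −1.60 and −1.13. In efferocytic Mϕ, Idh1 lay between −1.74 and −1.06, Idh2 between −0.99 and −0.80, Idh3a between −1.65 and −1.22, and Aco1 between −0.97 and −0.63. Where a compared sample was left out, 1 group kept a single sample, and fewer of all tested genes were called too. The Aco1 call in efferocytic Mϕ was also lost without Ctrl replicate 1 or 2, which are in neither of the compared groups. Why calls were lost was not tested.

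Sdha and Sdhb encode the flavoprotein and the iron-sulfur subunit of succinate dehydrogenase, complex II of the respiratory chain, at chr13:74469359-74498436 (minus strand) and chr4:140688502-140709380 (plus strand). Sdha had normalized counts of 1917 and 2059.9 (Ctrl), 1375 and 1841 (LPS), 1459.9 and 1722 (Eff), and 1139 and 1635 (LPSEff). The LPS samples were both below the Ctrl samples, but they differed from each other more than the higher one did from Ctrl, and the LPSEff samples overlapped with the Eff samples. The log2 change of Sdha was −0.32 in naïve Mϕ (95% interval −0.86 to 0.22, adjusted p = 0.380 in limma). In efferocytic Mϕ it was −0.22 (−0.76 to 0.33, adjusted p = 0.589), and 0.04 without LPSEff replicate 1.

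Normalized counts of Sdhb were 825 and 893 (Ctrl), 629 and 674 (LPS), 725 and 860.3 (Eff), and 626 and 754 (LPSEff). The LPS samples were below the Ctrl samples, and the LPSEff samples overlapped with the Eff samples. Changes of −0.40 in naïve Mϕ (95% interval −0.82 to 0.02, adjusted p = 0.164 in limma) and −0.20 in efferocytic Mϕ (−0.62 to 0.22, adjusted p = 0.512) were not called. The intervals of both genes reached down to −0.86 and −0.82 in naïve Mϕ, which leaves room for a decrease.

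Slc25a1 encodes the mitochondrial citrate carrier, which exports citrate to the cytosol, at chr16:17743075-17746245 on the minus strand. It had normalized counts of 497 and 456 (Ctrl), 561 and 665 (LPS), 379 and 349 (Eff), and 500.4 and 456 (LPSEff). Besides Acod1, it was the other gene of the 9 with higher values in the stimulated samples of both contexts, without overlap. The log2 differences of 0.36 ± 0.18 in naïve Mϕ (adjusted p = 0.196 in limma) and 0.39 ± 0.18 in efferocytic Mϕ (adjusted p = 0.172) were not called, and they turned to −0.04 and −0.06 when samples were scaled to equal totals.

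Acly encodes ATP citrate lyase, which cleaves exported citrate to acetyl-CoA and oxaloacetate, at chr11:100367165-100440756 on the minus strand. Acly had normalized counts of 2567 and 2502 (Ctrl), 1698 and 1944 (LPS), 1989 and 1970.4 (Eff), and 1870.0 and 1767 (LPSEff). Both Ctrl samples were above the other samples, which lay between 1698 and 1989. The change with LPS/IFNγ was −0.48 ± 0.17 in naïve Mϕ (unadjusted p = 0.0193, adjusted p = 0.0710 in limma) and −0.12 ± 0.17 in efferocytic Mϕ (adjusted p = 0.672). The difference of 0.36 between both changes had a 95% interval of −0.18 to 0.89 and an unadjusted p = 0.165 in limma.

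How the samples were scaled mattered for these smaller changes. The stimulated samples had normalized totals of 8470249 to 9489294, against 6587737 to 6951788 in the unstimulated ones, and when all samples were scaled to equal totals, the median log2 change of all genes fell by 0.40 in naïve and fell by 0.45 in efferocytic Mϕ. It also moved the share of higher genes among all called ones from 51.5% to 24.6% in naïve and from 54.6% to 21.7% in efferocytic Mϕ. With equal totals, 8 of the 9 genes were called in each context (35.0% and 34.1% of all tested genes), Sdha, Sdhb and Acly being lower in both and Aco1 lower in naïve Mϕ too. Quantile normalization called 8 in naïve (25.4% of all) and 7 in efferocytic Mϕ (22.9% of all), where Sdhb was not called. Acod1 was called higher, and Idh1, Idh2 and Idh3a lower, under each of these scalings in both contexts. The plot of the changes under 3 scalings shows the other 8 genes.

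**Figure D3:**
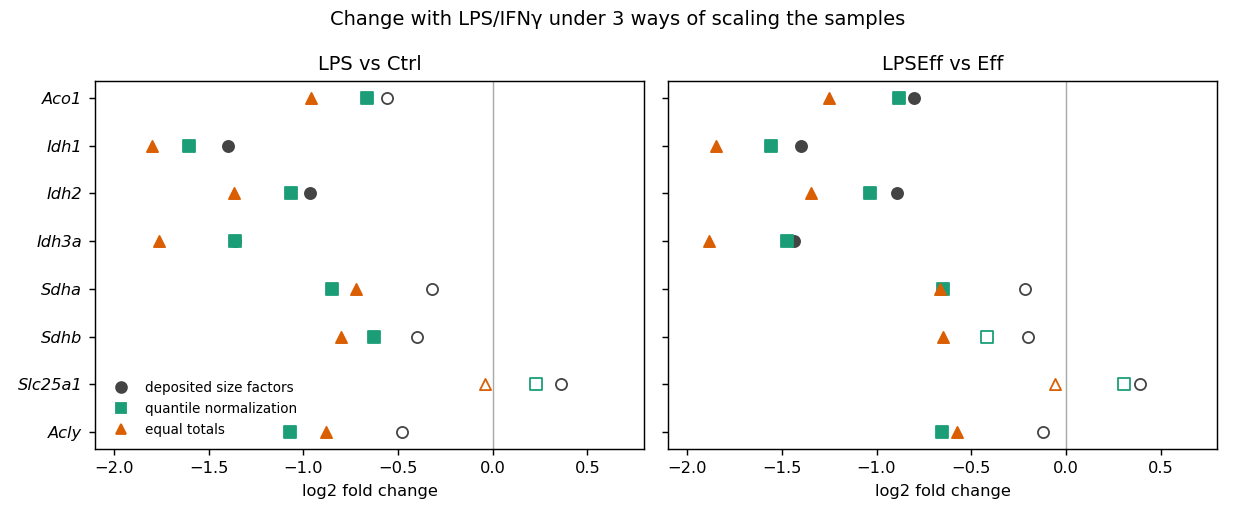
Log2 fold change with LPS/IFNγ (horizontal axis) of the 8 genes other than Acod1 in naïve (left) and efferocytic Mϕ (right), with the deposited size factors (circles), quantile normalization (squares) and equal totals (triangles). Filled symbols have an adjusted p under 0.05 in limma. Slc25a1 moves from 0.36 to −0.04 and from 0.39 to −0.06 with equal totals, and Acly in naïve Mϕ from −0.48, which is not called, to −0.88, which is.

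Efferocytosis itself left the 9 genes without a call. Between Eff and Ctrl, 0 of the 9 were called (0.251% of all tested genes were) and 0 had an unadjusted p under 0.05 in limma (1000 of all 16309 did). EdgeR and DESeq2 also called 0, against 0.0858% and 1.27% of all. Differences were between −0.41 (Acod1) and 0.10 (Idh2) on the log2 scale with a median of −0.19, against −0.01 over all tested genes. Both Eff samples were below both Ctrl samples for Aco1, Idh3a, Sdha, Slc25a1 and Acly, that is for 5 of the 9 (34.1% of all tested genes did not overlap, 17.8% in this direction). Slc25a1 was at −0.39 (95% interval −0.80 to 0.02, adjusted p = 0.857 in limma) and Acly at −0.36 (−0.74 to 0.02, adjusted p = 0.861). For Acod1 the interval was wide, from −1.29 to 0.47, and the difference was 0.15 without Eff replicate 2.

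Between LPSEff and LPS, again 0 of the 9 were called (0.773% of all tested genes were), and 0 had an unadjusted p under 0.05 in limma (1679 of all 16309 did). EdgeR and DESeq2 called 0 as well (against 0.773% and 2.26%). The log2 differences were between −0.39 (Aco1) and 0.21 (Acod1), with a median of −0.19 against 0.00 over all tested genes. Both LPSEff samples were below both LPS samples for Aco1 and Slc25a1 and above them for Idh2 (36.3% of all tested genes did not overlap). Slc25a1 differed by −0.36 on the log2 scale (95% interval −0.77 to 0.06, adjusted p = 0.572 in limma), against −0.39 between Eff and Ctrl. Acod1 differed by 0.21, with an interval of −0.66 to 1.09, which leaves room for a change in either direction. For Acly the estimate was 0.00 (interval −0.38 to 0.38), with a sign that turned to −0.04 with equal totals and to −0.01 in DESeq2. These comparisons share samples with the LPS/IFNγ comparisons. Fibroblast markers moved with them, since 6 of 10 tested ones were higher in Eff than in Ctrl and 5 in LPSEff than in LPS, and since NIH-3T3 cells are mouse cells their reads cannot be told apart from those of Mϕ. Whether fibroblast RNA had a part in the values of the 9 genes was not tested.

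Levels of different genes can be compared per length of transcript. Per kilobase of the canonical transcript, Sdha (647 ± 33 normalized counts, SD) and Acly (575 ± 10) were highest of the 9 in Ctrl and Aco1 (122 ± 3) lowest. Acod1 was the fourth there, at 355 ± 127, and its samples overlapped with those of Idh2 above it and Idh1 below it. In Eff the order was the same, with Acod1 at 278 ± 146. In LPS, Acod1 was first at 15155 ± 2185 per kilobase, followed by Sdha at 523 ± 107 without overlap, and in LPSEff it was first at 17510 ± 1174, followed by Sdha at 451 ± 114. Slc25a1 moved from rank 6 in Ctrl (259 ± 16) to rank 4 in LPS (333 ± 40), above Idh2 (183 ± 8). Idh3a was last in LPS (73.6 ± 17.0) and in LPSEff (61.0 ± 13.0), and its samples overlapped with those of Aco1 in both groups. These levels rest on 1 transcript per gene.

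Some of the 9 genes share exonic bases with a gene on the opposite strand, namely Acod1, Idh2, Idh3a, Sdha, Sdhb and Acly, and none shares them with a gene on the same strand. Among the partners are Zfp710 (Idh2), Acsbg1 (Idh3a), Ccdc127 (Sdha) and Odad4 (Acly), and those of Acod1 and Sdhb are noncoding RNAs that were not analysed here. Counting was done with the default mode of htseq-count, which assigns reads by strand, and no read was reassigned here.

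The other genes of these pathways were described as 6 lists with 67 genes, of which 65 were tested. With LPS/IFNγ, 12 of the 65 were called in naïve Mϕ (24.0% of all tested genes were), 2 of them higher (12.4%) and 10 lower (11.6%). For efferocytic Mϕ the count was 8 (19.7% of all), 3 higher (10.7%) and 5 lower (8.95%). The medians were −0.39 and −0.23 on the log2 scale. The counts also moved when 1 sample was left out. Where this was a compared sample, 1 group kept a single sample, and fewer of all tested genes were called too. With equal totals the counts were 33 and 32 (35.0% and 34.1% of all), and with quantile normalization 23 and 19 (25.4% and 22.9% of all). The plot of the lists shows every tested gene.

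**Figure D4:**
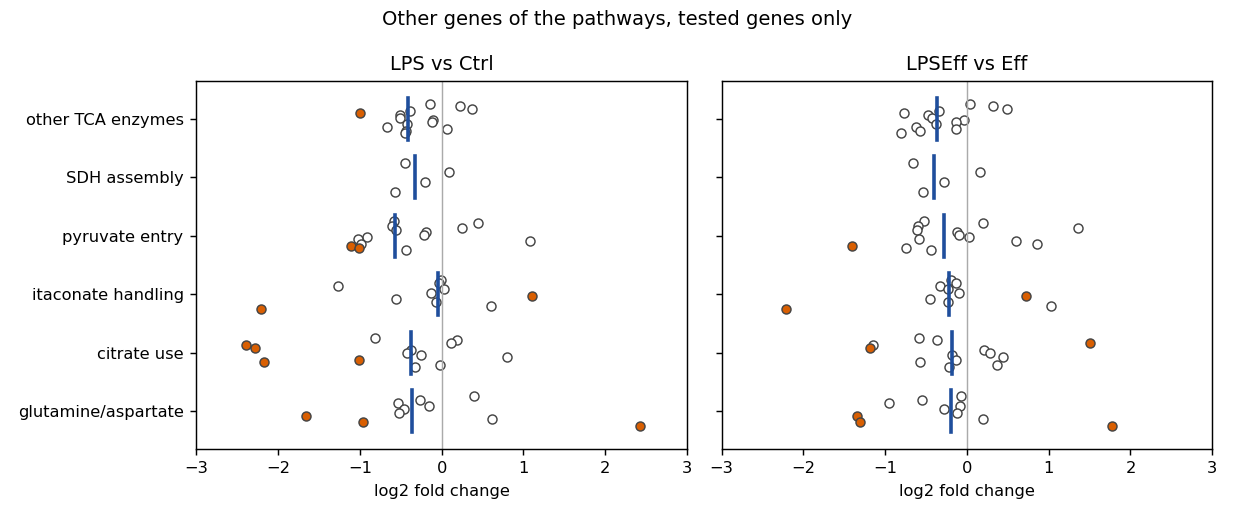
Log2 fold change with LPS/IFNγ (horizontal axis) of the 65 tested genes of 6 pathway lists in naïve (left) and efferocytic Mϕ (right). Points are genes, filled where the adjusted p was under 0.05 in limma, and blue bars are list medians. The medians lie between −0.57 and −0.05 on the left and between −0.41 and −0.19 on the right, and in both panels filled points are on both sides of 0 in the itaconate list and in the glutamine and aspartate list.

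Of the 14 other TCA cycle genes, 1 was called lower in naïve and 0 in efferocytic Mϕ in limma (11.6% and 8.95% of all tested genes were called lower), with medians of −0.41 and −0.36. In efferocytic Mϕ, 4 of them had an unadjusted p under 0.05 in limma, against 5315 of all 16309 tested genes. EdgeR called 0 and DESeq2 called 1 there, against 3509 and 3518 of all. The called gene was Fh1, encoding fumarase, with 463 and 612 normalized counts (Ctrl), 222 and 319 (LPS), 374 and 534 (Eff), and 238 and 289 (LPSEff). It fell 1.99-fold in naïve Mϕ (adjusted p = 0.0318 in limma), a call that was lost without Ctrl replicate 1 or 2 or LPS replicate 1 (adjusted p = 0.0626 to 0.173) and with only the compared groups in the fit (0.0541). The partners of the 9 genes, picked here for their role after their values were seen, were not called. Idh3b and Idh3g, the other subunits of the NAD-dependent isocitrate dehydrogenase, changed by −0.51 and −0.51 in naïve and by −0.47 and −0.43 in efferocytic Mϕ, against −1.36 and −1.44 for Idh3a. Cs, citrate synthase, had a log2 difference of 0.23 in naïve Mϕ (adjusted p = 0.478 in limma). Sdhc and Sdhd, the membrane anchors of succinate dehydrogenase, differed by −0.43 and −0.66 in naïve Mϕ (adjusted p = 0.113 and 0.0564 in limma). Of 4 genes for assembly of this complex, 0 were called in either context by limma, edgeR or DESeq2. At an unadjusted p under 0.05 in limma there were also 0, against 5795 of all 16309 tested genes in naïve and 5315 in efferocytic Mϕ.

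Of 14 genes for entry of pyruvate, 2 were called lower in naïve Mϕ (11.6% of all tested genes were) and 1 in efferocytic Mϕ (8.95%). They were Pdp1 and Pdp2, the phosphatases that switch pyruvate dehydrogenase on. Pdp1 had 173 and 154 normalized counts (Ctrl), 64.7 and 87.3 (LPS), 186 and 207 (Eff), and 74.4 and 72.3 (LPSEff). It fell 2.16-fold in naïve Mϕ (adjusted p = 0.0115 in limma) and 2.65-fold in efferocytic Mϕ (adjusted p = 0.00484). The call in naïve Mϕ was lost without Ctrl replicate 1 or LPS replicate 1 (adjusted p = 0.0601 to 0.0766). Pdp2 fell 2.01-fold in naïve Mϕ (adjusted p = 0.0221), which was lost without Ctrl replicate 1 or 2 or LPS replicate 1 (0.0795 to 0.116) and with only the compared groups in the fit (0.0503).

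Of 12 genes for the transport, breakdown and sensing of itaconate and succinate, 10 were tested, and 1 was called higher and 1 lower in each context, against 12.4% and 11.6% of all tested genes in naïve and 10.7% and 8.95% in efferocytic Mϕ. Tfeb, the transcription factor of lysosome biogenesis, had normalized counts of 439.9 and 278 (Ctrl), 64.7 and 86.3 (LPS), 306 and 239.9 (Eff), and 58.6 and 57.1 (LPSEff). It fell 4.63-fold in naïve (adjusted p = 0.00124 in limma) and 4.62-fold in efferocytic Mϕ (adjusted p = 0.00139), calls that held in all fits without 1 sample. Rab32, a GTPase that delivers itaconate to vacuoles with bacteria, had 550.3 and 557 in Ctrl and 1434 and 989 in LPS, and rose 2.15-fold (adjusted p = 0.00712, and 0.0508 with equal totals). In efferocytic Mϕ it rose 1.65-fold, from 726 and 704 to 1262 and 1103 (adjusted p = 0.0453), a call lost in 6 fits without 1 sample (any of Ctrl, Eff and LPSEff; adjusted p = 0.0739 to 0.212), and also in edgeR (0.0528), without the filter (0.103), with quantile normalization (0.188) and with equal totals (0.421).

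Of 13 genes that use exported citrate or acetyl-CoA, 4 were called lower in naïve Mϕ (11.6% of all tested genes were), while in efferocytic Mϕ 1 was called higher (10.7%) and 1 lower (8.95%). Fasn, fatty acid synthase, had 3499.9 and 3087 normalized counts (Ctrl), 554 and 827 (LPS), 2673 and 1848 (Eff), and 1076 and 879 (LPSEff). It fell 4.85-fold in naïve (adjusted p = 0.000735 in limma) and 2.28-fold in efferocytic Mϕ (adjusted p = 0.0150), the second call being lost without Eff replicate 1 or LPSEff replicate 2 (0.0846 to 0.108). Elovl6, a fatty acid elongase, fell 5.25-fold and Scd2, a stearoyl-CoA desaturase, fell 4.49-fold in naïve Mϕ (adjusted p = 0.00208 and 0.00146). In efferocytic Mϕ, Elovl6 (adjusted p = 0.0511) and Scd2 (0.215) were not called. Scd1 was called lower in naïve Mϕ too. The LPS/IFNγ effects of the 13 genes differed between the contexts by a median of 0.59 on the log2 scale, against 0.01 over all tested genes. At an unadjusted p under 0.05 in limma there were 5 of the 13, against 311 of all 16309 tested genes. Limma, edgeR and DESeq2 called 0 of the 13 and 0 of all. Acss2, which makes acetyl-CoA from acetate and so bypasses ACLY, rose 2.84-fold in efferocytic Mϕ, from 43.8 and 64.9 to 147 and 159.9 normalized counts (adjusted p = 0.0149), a call lost without Eff replicate 1 or either LPSEff sample (0.0671 to 0.0993). In naïve Mϕ it had 66.6 and 85.6 normalized counts in Ctrl and 63.4 and 107 in LPS and was not called (adjusted p = 0.840).

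Of 10 glutamine and aspartate genes, 1 was called higher and 2 lower in each context, where 12.4% and 11.6% of all tested genes were in naïve Mϕ and 10.7% and 8.95% in efferocytic Mϕ. Slc25a22, a mitochondrial glutamate carrier, rose from 105 and 87.3 normalized counts in Ctrl to 609 and 445 in LPS, that is 5.40-fold (adjusted p = 0.00112 in limma), and from 131 and 74.1 in Eff to 375 and 307 in LPSEff, or 3.43-fold (adjusted p = 0.00545). Slc1a5, a glutamine transporter of the plasma membrane, fell 3.15-fold in naïve (adjusted p = 0.00316) and 2.54-fold in efferocytic Mϕ (adjusted p = 0.00906, and 0.0713 without Eff replicate 1). Slc25a13, an aspartate and glutamate carrier of the malate-aspartate shuttle, fell 1.95-fold in naïve (adjusted p = 0.0184) and 2.47-fold in efferocytic Mϕ (adjusted p = 0.00589). The first of these Slc25a13 calls was lost without Ctrl replicate 1 or 2 or LPS replicate 1 (0.0843 to 0.0912) and the second without Eff replicate 1 (0.0503).

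Between efferocytic and naïve Mϕ, 1 of the 65 genes was called without the stimulus (0.251% of all tested genes were) and 2 with it (0.773%). Scd1, a stearoyl-CoA desaturase, had normalized counts of 754 and 688 (Ctrl), 166 and 186 (Eff), 404 and 316 (LPS), and 163 and 159 (LPSEff). It was 4.07-fold lower in Eff than in Ctrl (adjusted p = 0.0125 in limma), which was lost without any 1 of the 4 samples compared (0.0527 to 0.165). It was 2.21-fold lower in LPSEff than in LPS (adjusted p = 0.0490), which was lost in all 8 fits without 1 sample (0.0871 to 0.314). It was also lost in edgeR (0.0605), with a pseudocount of 0.5 (0.0505), with a mean above 0 (0.0645), with equal totals (0.0574), with quantile normalization (0.0714) and with only the compared groups in the fit (0.200). Pdk4, a kinase that switches pyruvate dehydrogenase off, was called higher in LPSEff than in LPS (adjusted p = 0.0177 in limma), a call lost without LPSEff replicate 1 or 2 (0.218 to 0.234) and with only the compared groups in the fit (0.0575). It had 52 and 39 reads in the LPSEff samples and 0 and 1 in the LPS samples, a depth-adjusted ratio of 78.0 with an exact 95% counting interval of 13.7 to 3114. Between Eff and Ctrl it was not called (adjusted p = 0.134 in limma), with 23 and 42 reads in the Eff samples and 1 and 3 in the Ctrl samples, a ratio of 14.3 with a counting interval of 5.33 to 54.1. Of 10 tested fibroblast markers, 6 were also higher in Eff than in Ctrl and 5 in LPSEff than in LPS. Whether RNA of the NIH-3T3 fibroblasts had a part in the Pdk4 values was not tested.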

How the data were processed

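Total RNA of 8 BMDM samples (4 groups, n = 2) was depleted of rRNA and sequenced by the authors, who trimmed reads with cutadapt, removed rRNA with Bowtie2, mapped to mm39 with STAR, counted with HTSeq (default mode) and scaled with DESeq2. Their versions and the annotation release are not given in the sources used here. What the authors deposited is a scaled signal for each gene, in which its reads were divided by 1 size factor per sample. All values (100%) were whole multiples of 1 read's worth in their sample (tolerance 0.01), which gave 3481288 to 12020918 reads. A floor of 3 reads was 1.73 to 5.71 normalized counts and covers counting error only. GENCODE release M39 (GRCm39) named 54749 identifiers (98.9%).

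For 16309 genes (mean 10 or more), log2(normalized count + 1) was fitted with limma 3.58.1 (R 4.3.3, trend, 4 group means, 4 residual degrees of freedom, two-sided). Genes were called where the p adjusted over all tested genes (Benjamini-Hochberg) was under 0.05. Fold changes are on this scale and understate low genes. The 9 genes, the lists and the markers were chosen with earlier results of these data known. Of each list, up to 3 called rises and 3 called falls per comparison were to be named, and the 5 genes most like Acod1 by Pearson r. The motifs were chosen after the Acod1 sequence had been read. Alternatives were pseudocounts of 0.5 and 5, filters at a mean above 0 or from 50 up, a fit of only the compared groups, a replicate block, quantile normalization, equal totals, edgeR 4.0.16 with TMM, DESeq2 1.42.0, and leaving out each sample, and edgeR and DESeq2 with the block were added after seeing the data. On simulated counts for LPS vs Ctrl with 15975 genes, limma recovered 16 of 96 genes changed 2-fold (16.7%) and 74 of 96 changed 4-fold (77.1%). No other tested gene was changed there, so that the adjustment was stricter than in the data. The proteomic, polysome and migration experiments were not analysed here.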

Additional observations from a re-analysis of the deposited data

How the results depend on the processing

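The directions of the 4 genes called in naïve and the 5 called in efferocytic Mϕ were kept under every alternative run. The replicate numbers 1 and 2 are not stated to mark a shared preparation, and the deviations of sample 1 from its group mean correlated between groups at r = 0.404 to 0.595 across genes, which is a hint from the data and not the design. With this number as a replicate block, 7 of the 9 genes were called in LPS vs Ctrl and 5 in LPSEff vs Eff, and 29, 24, 5 and 4 of the 65 other pathway genes with LPS/IFNγ in naïve and in efferocytic Mϕ and between efferocytic and naïve Mϕ without and with the stimulus, against 6717, 6033, 436 and 1137 of all 16309 genes. The block added Aco1, Sdhb and Acly in LPS vs Ctrl, all lower (adjusted p = 0.0166, 0.0320 and 0.0142 in limma). In count tests with the block, added after seeing the data, edgeR called 8 of the 9 in LPS vs Ctrl (all but Sdha) and 6 in LPSEff vs Eff, with Slc25a1 higher in both (adjusted p = 0.0448 and 0.0319), and 29, 23, 6 and 5 of the 65, against 6663, 6314, 429 and 1233 of all genes. DESeq2 with the block called 6 of the 9 in LPS vs Ctrl and 21, 20, 6 and 4 of the 65, against 5615, 5290, 515 and 1072 of all. It also called 29 genes for the difference between both LPS/IFNγ effects, 20 higher and 9 lower and 0 of the 9 among them, where limma and edgeR with the block called 0. Equal totals called 8 of the 9 in LPS vs Ctrl and 8 in LPSEff vs Eff. Of the 65, they called 33, 32 and 1 in LPS vs Ctrl, LPSEff vs Eff and LPSEff vs LPS, against 5726, 5576 and 137 of all 16362 genes. Quantile normalization called 8 of the 9 in LPS vs Ctrl, and 23, 19, 2 and 1 of the 65 in the 4 comparisons, against 4146, 3740, 52 and 165 of all. DESeq2 without the block called 5 of the 65 in Eff vs Ctrl (1.27% of all tested genes were called). In LPSEff vs LPS, 1 of the 65 was called with a pseudocount of 0.5, with a mean above 0, with a mean of at least 50 or in edgeR. Over all genes these called 119 of 16309, 162 of 45925, 101 of 10868 and 126 of 16309. With only the compared groups, where fewer samples give the spread, 0 of the 65 and 66 of all 16309 were called. Without 1 sample at a time, 2 to 5 of the 9 were called in LPSEff vs Eff, and of the 65, 7 to 16 in LPS vs Ctrl, 3 to 10 in LPSEff vs Eff, and 0 to 1 both in Eff vs Ctrl and, likewise, LPSEff vs LPS. Signs of uncalled log2 differences turned as follows. Slc25a1 was at −0.042 (LPS vs Ctrl) and −0.056 (LPSEff vs Eff) with equal totals. Acly in LPSEff vs LPS was at −0.036 with equal totals, −0.014 in DESeq2, −0.0010 in edgeR with the block and −0.017 in DESeq2 with the block. Without 1 sample at a time, Sdha was between −0.48 and 0.044 in LPSEff vs Eff. In Eff vs Ctrl, Acod1 was between −0.97 and 0.15, Idh1 between −0.47 and 0.089, Idh2 between −0.017 and 0.22, and Sdhb between −0.24 and 0.0033. In LPSEff vs LPS, Idh1 was between −0.53 and 0.15, Sdha between −0.48 and 0.039, Sdhb between −0.056 and 0.21, and Acly between −0.097 and 0.098. Why calls and signs moved was not tested. In the simulation, with 2 samples a group and these depths, limma recovered 16.7% of the 2-fold changes in LPS vs Ctrl. There, 96 genes changed 2-fold and 96 changed 4-fold of 15975, while 24.0% of tested genes were called in the data. The adjusted threshold was therefore harder to pass in the simulation, and this share does not carry over to the data. Genes that were not called may still have changed.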
